A study of Mus musculus with 6 samples.

Results

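The replication-independent histone variant genes of mouse embryonic fibroblasts (MEFs) were compared between Rnf40+/+ and Rnf40-/- cells. They were taken from the deposited table by their symbols, H2afx, H2afz, H2afv, H2afy, H2afy2, H2afj, H3f3a, H3f3b, H1f0 and H1fx, and all 10 were found among the 29955 genes of the table. RNF40 is a subunit of the E3 ligase that places monoubiquitin on histone H2B. RNA-seq was available for 3 libraries of Rnf40+/+ and 3 libraries of Rnf40-/- MEFs at passage 3. The methods describe MEFs from homozygous Rosa26-CreERT2, Rnf40 loxP/loxP embryos, in which a Cre driven from the ubiquitously active Rosa26 locus removes exons 3 and 4 of Rnf40. For the knockout, cells were given 250 nM 4-hydroxytamoxifen (4-OHT) for 5 days and kept for 3 days without it. Whether the Rnf40+/+ cells carried the floxed alleles or received 4-OHT is not stated for these libraries, so the deletion and the treatment cannot be told apart. The labels do not say whether libraries of a genotype came from separate embryos or cultures, and p-values measure only the spread between these samples, which may be technical.

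Most histones of a dividing cell come from clustered genes without introns, whose mRNAs end in a stem-loop and are made in S phase. The variant genes lie outside those clusters, mostly give polyadenylated mRNAs, and are expressed through the cell cycle and in resting cells, which lets chromatin be rebuilt without DNA replication. H2A.X is phosphorylated beside DNA breaks, H2A.Z flanks start sites, macroH2A is known from the inactive X chromosome and silent genes, H3.3 marks active and repetitive chromatin, and H1.0 and H1.X are linker histones.

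The values deposited are reads scaled by a size factor for each library, called normalized counts here. Libraries held between 17053436 and 26344170 reads on genes. A gene with 3 reads had a normalized count of 2.40 to 3.58, and each variant gene had between 119 and 9839 reads in every library. The targeted gene was checked first: Rnf40 had normalized counts of 1278, 1195 and 1096 in the Rnf40+/+ and 439, 519 and 487 in the Rnf40-/- libraries, counted over the whole gene and not over the deleted exons alone. Genotypes were compared by limma after adding 1 and taking log2, with Benjamini-Hochberg adjustment over all 16378 genes with enough reads, and a call is an adjusted p under 0.05. The third Rnf40+/+ library stood apart from the other 2 of its genotype (chi-square per gene of 29.0 and 26.3, against 8.09 between those 2), so it is mentioned where it changed a result. Fibroblast markers were abundant in both genotypes, with summed normalized counts of 690335 to 758108 in Rnf40+/+ and 414472 to 417722 in Rnf40-/- libraries, and 9 of 10 were lower. Macrophage markers summed to 5707, 6323 and 11404 in Rnf40+/+ and to between 3487 and 3905 in Rnf40-/- libraries, with 4 of 8 tested lower and 1 higher. Endothelial markers summed to 51.0 to 146 and 179 to 283, epithelial markers to 30.6 to 86.0 and 43.8 to 62.2, and germ and pluripotent cell markers to 34.6 to 50.3 and 101 to 130, in the same order. Of those tested, 3 of 4 endothelial markers, 1 of 2 epithelial markers and the 1 germ and pluripotent cell marker were higher, and 0 were lower. The shares called over all genes tested were 24.1% lower and 23.3% higher. In bulk RNA, fewer cells of a type and less RNA per cell cannot be told apart, and the part of these markers in the results below was not tested.

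Of the 10 variant genes, 7 fell, 1 rose and 2 did not pass the test. The 7 that fell were both H2A.Z genes, H1f0, H2afy2, H2afx, H1fx and H3f3b, and the one that rose was H2afy. Over all genes tested, 24.1% were called lower, 23.3% higher and 47.4% in either direction. The median log2 fold change was -0.73 over the variant genes and -0.0035 over all genes tested. The libraries of the 2 genotypes did not overlap for 8 of the 10 genes, against 56.5% of all genes tested. Without the third Rnf40+/+ library 7 fell and 2 rose. Under the criteria of the study (a mean above 15, an unadjusted p under 0.05 and a log2 fold change beyond 1 in size), 4 of the 10 were lower (H2afz, H2afv, H2afy2 and H1f0), against 5.7% of genes tested that were lower. H2afy2 passed narrowly, with a log2 fold change of -1.005. It fell short of 1 in size with a pseudocount of 10 (-0.980) and without some single libraries (as far as -0.985).

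**Figure D1:**
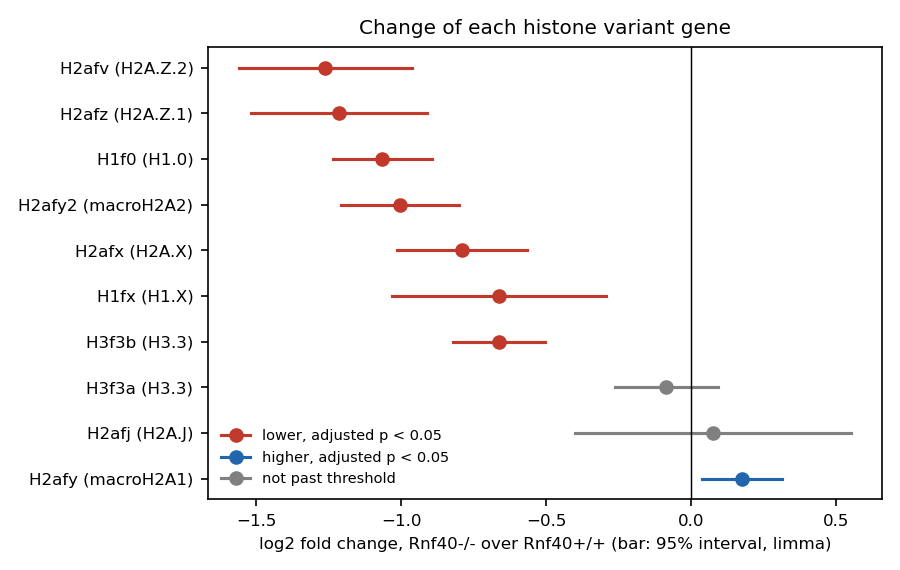
Log2 fold change of each histone variant gene between Rnf40-/- and Rnf40+/+ MEFs (points, limma) with its 95% interval (bars). The intervals of 7 genes lie below 0, that of H2afy lies just above 0, and those of H2afj and H3f3a span 0.

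The sequences before the start sites of the H2A.Z and H3.3 genes are shown, since each pair encodes near-identical or identical histones from separate promoters. Both H2A.Z genes fell, and of the H3.3 genes H3f3b fell and H3f3a did not pass the test. RefSeq start sites (GRCm38.p6) were matched for 9 of the 10 genes, H2afx not among them, and the 250 bases before the start are printed 5′ to 3′ on the strand of the gene. Capitals mark matches, on either strand, to CCAAT (the box bound by NF-Y), to TTGGCGC or TTCCCGC (E2F-type), to TTTGAA or TTTAAA (the cell cycle homology region, CHR) and to TATAAA. A match on the opposite strand appears as its reverse complement, as where CCAAT is read as ATTGG.
H2afz (chr3:137864237-137864486, plus strand): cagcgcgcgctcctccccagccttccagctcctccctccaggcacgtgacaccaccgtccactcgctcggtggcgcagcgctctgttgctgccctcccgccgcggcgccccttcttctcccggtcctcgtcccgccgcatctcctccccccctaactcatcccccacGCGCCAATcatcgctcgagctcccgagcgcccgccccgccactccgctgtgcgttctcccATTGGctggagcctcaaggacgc
H2afv (chr11:6444444-6444693, minus strand): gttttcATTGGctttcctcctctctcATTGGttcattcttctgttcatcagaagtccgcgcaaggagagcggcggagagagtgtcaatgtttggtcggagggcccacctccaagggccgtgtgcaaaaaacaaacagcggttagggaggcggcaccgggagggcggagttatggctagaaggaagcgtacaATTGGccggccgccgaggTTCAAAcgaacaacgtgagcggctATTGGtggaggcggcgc
H3f3b (chr11:116024505-116024754, minus strand): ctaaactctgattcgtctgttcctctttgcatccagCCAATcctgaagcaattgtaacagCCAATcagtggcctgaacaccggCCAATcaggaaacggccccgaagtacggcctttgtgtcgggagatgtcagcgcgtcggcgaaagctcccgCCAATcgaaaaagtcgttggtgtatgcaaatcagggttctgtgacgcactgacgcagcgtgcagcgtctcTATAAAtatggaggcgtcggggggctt
H3f3a (chr1:180813606-180813855, minus strand): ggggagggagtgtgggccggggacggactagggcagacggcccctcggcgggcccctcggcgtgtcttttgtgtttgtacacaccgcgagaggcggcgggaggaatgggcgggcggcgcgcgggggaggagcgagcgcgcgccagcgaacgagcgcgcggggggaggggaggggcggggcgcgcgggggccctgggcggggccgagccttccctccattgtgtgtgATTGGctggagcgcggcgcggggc
Over windows from 250 bases before to 50 after the start, CCAAT was found in 6 of the 9 genes and in 37.4% of 32851 windows of the same length. The H2afz window held 3 CCAAT matches and the H2afv window 4. The first of the 3 in H2afz, 80 bases before the start, overlaps the single TTGGCGC match, so that both read as 1 run of capitals, and the last lies 22 bases after the start and is not printed. H2afv had no E2F-type match and 1 CHR match 41 bases before the start. H3f3b had 4 CCAAT matches and a TATAAA 27 bases before the start, while H3f3a had 1 CCAAT match. E2F-type matches were found in 3 of the 9 windows (H2afz, H2afy2 and H1fx) and in 6.81% of all windows, and the match in H2afy2, after the start, also overlaps a CCAAT. CHR matches were in 1 of the 9 and 27.6% of all windows, and TATAAA in 13.6%. The windows of H2afy and H1f0 held none of these motifs. A match describes the letters only, and no binding was measured.

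H2afx encodes H2A.X, the H2A that ATM-family kinases phosphorylate beside breaks. It is a single exon at chr9:44142798-44144154 of mm9, plus strand. Its normalized counts were 997, 783 and 974 in Rnf40+/+ and 534, 487 and 562 in Rnf40-/- MEFs. Every Rnf40-/- library was below every Rnf40+/+ library. H2afx was 1.73-fold lower (log2 fold change -0.79, SE 0.10, limma adjusted p = 6.31e-05).

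Both H2A.Z genes fell. H2afz (H2A.Z.1) lies at chr3:137527451-137529886 on the plus strand and H2afv (H2A.Z.2) at chr11:6327229-6344446 on the minus strand of mm9, with 5 exons in the longest transcript of each. The normalized counts of H2afz were 1766, 1079 and 1330 in Rnf40+/+ and 561, 592 and 609 in Rnf40-/- libraries. Those of H2afv were 1439, 918 and 1175 in Rnf40+/+ and 452, 463 and 536 in Rnf40-/- libraries. For both genes the first Rnf40+/+ library was the highest and the second the lowest, and the genotypes did not overlap. H2afz was 2.32-fold lower (log2 fold change -1.21, SE 0.14, limma adjusted p = 2.29e-05). H2afv was 2.40-fold lower (log2 fold change -1.26, SE 0.14, limma adjusted p = 1.55e-05). A lower log2 fold change was found for 4.12% of genes tested than for H2afz and for 3.75% than for H2afv. The 95% intervals of H2afz (-1.52 to -0.91) and H1f0 (-1.24 to -0.90) overlapped, so no order among the largest falls is given.

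The spread of H2afz was 25.0% of its mean in Rnf40+/+ and 4.16% in Rnf40-/- libraries. That of H2afv was 22.1% and 9.48%. Within a library the 2 genes kept close to one another. The ratio of H2afz to H2afv was 1.23, 1.18 and 1.13 in Rnf40+/+ and 1.24, 1.28 and 1.135 in Rnf40-/- libraries, which overlap. On the log2 scale the ratio was 0.24 ± 0.06 and 0.28 ± 0.09 (SD, n = 3), a difference of 0.05 (exact two-sided permutation p = 0.4, and 0.4 after adjustment over the 4 pairs compared). With 3 libraries against 3 the smallest p this test can give is 0.1. Per kilobase of the longest transcript, H2afz held 64.3% ± 0.931 of the summed H2A.Z level in Rnf40+/+ and 65.0% ± 1.40 in Rnf40-/- MEFs (SD, n = 3). With the union of all exons as the length, its shares were 52.1% ± 1.01 and 52.9% ± 1.53. The size of its share thus depends on the length used. With the longest transcript the summed level was 2022 ± 483 and 845 ± 48.9 normalized counts per kilobase. Rnf40-/- MEFs thus held 41.8% of the Rnf40+/+ level, and 41.7% with the union of exons. Their transcripts were 79.3% identical over the longest alignment of 386 nucleotides and shared 0 windows of 35 nucleotides. H2afz may be uncertain in another way. Copies of at least 95% identity covered 90.9% of its transcript at 2 other places in mm9 (Gm17284 and Gm8203), whereas H2afv had none. Reads were mapped to the transcriptome, and whether it held these copies was not checked.

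The macroH2A genes moved in opposite directions. Both encode an H2A joined to a large macro domain, H2afy that of macroH2A1 (chr13:56174980-56237722) and H2afy2 that of macroH2A2 (chr10:61201391-61246895), each with 9 exons on the minus strand of mm9. The normalized counts of H2afy were 2218, 2217 and 2241 in Rnf40+/+ and 2449, 2442 and 2659 in Rnf40-/- libraries. Those of H2afy2 were 485, 502 and 509 in Rnf40+/+ and 262, 241 and 241 in Rnf40-/- libraries. H2afy was higher in every Rnf40-/- library and H2afy2 lower in every one. H2afy2 was 2.01-fold lower (log2 fold change -1.01, SE 0.09, limma adjusted p = 4.54e-06). H2afy was 1.13-fold higher (log2 fold change 0.18, SE 0.06, limma adjusted p = 0.0359). The call of H2afy was lost when any one library other than the third Rnf40+/+ library was left out, with adjusted p of 0.0709 without the first and 0.0633 without the second Rnf40+/+ library, and 0.0775, 0.0577 and 0.139 without replicate 1, 2 and 3 of Rnf40-/-. H2afy2 overlaps Aifm2 by position, and whether the counting used strand is not given in the sources used here.

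The ratio of H2afy to H2afy2 was 4.57, 4.41 and 4.40 in Rnf40+/+ and 9.31, 10.1 and 11.0 in Rnf40-/- libraries, with no overlap. On the log2 scale it was 2.16 ± 0.03 and 3.34 ± 0.12 (SD, n = 3), a difference of 1.18 (exact two-sided permutation p = 0.1, the smallest possible, and 0.2 after adjustment over the 4 pairs). Per kilobase of the longest transcript, H2afy held 82.6% ± 0.299 of the summed macroH2A level in Rnf40+/+ and 91.5% ± 0.647 in Rnf40-/- MEFs (SD, n = 3). With the union of all exons as the length the shares were 59.0% ± 0.504 and 76.6% ± 1.49. The direction of the summed level depended on that length. Rnf40-/- MEFs held 102% of the Rnf40+/+ sum with the longest transcript and 87.1% with the union of exons, and no change of total macroH2A mRNA is given for that reason.

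H2afj, a single-exon gene for H2A.J (chr6:136756769-136758595, plus strand), is a variant of mammals that accumulates in senescent fibroblasts. Its normalized counts were 886, 1093 and 1887 in Rnf40+/+ and 1497, 1042 and 1375 in Rnf40-/- libraries. The third Rnf40+/+ library was the highest of all 6 and the genotypes overlapped. The log2 fold change was 0.08 (95% interval -0.40 to 0.55, limma adjusted p = 0.798). Without the third Rnf40+/+ library, which also held the most macrophage marker counts, it was 0.39 (limma adjusted p = 0.0233), and without the first it was -0.16 (limma adjusted p = 0.528). No direction is given for H2afj, whose value turned on single libraries.

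The H3.3 genes encode the same protein from 2 loci, H3f3a at chr1:182730963-182744074 and H3f3b at chr11:115883226-115889276, both on the minus strand of mm9. The normalized counts of H3f3a were 4348, 5065 and 4357 in Rnf40+/+ and 4201, 4032 and 4749 in Rnf40-/- libraries. Those of H3f3b were 9069, 7631 and 7857 in Rnf40+/+ and 5114, 5233 and 5126 in Rnf40-/- libraries. H3f3b was lower in every Rnf40-/- library, where the SD was 1.27% of the mean, whereas the genotypes overlapped for H3f3a. H3f3b was 1.58-fold lower (log2 fold change -0.66, SE 0.07, limma adjusted p = 1.65e-05). H3f3a had a log2 fold change of -0.08 (95% interval -0.26 to 0.09, limma adjusted p = 0.421).

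The ratio of H3f3a to H3f3b was 0.480, 0.664 and 0.555 in Rnf40+/+ and 0.822, 0.770 and 0.927 in Rnf40-/- libraries, with no overlap. On the log2 scale the ratio was -0.83 ± 0.24 and -0.26 ± 0.14 (SD, n = 3), a difference of 0.58 (exact two-sided permutation p = 0.1, the smallest possible, and 0.2 after adjustment). Per kilobase, H3f3b held 66.8% ± 3.62 of the summed H3.3 level in Rnf40+/+ and 57.4% ± 2.29 in Rnf40-/- MEFs (SD, n = 3), and remained the larger source in each library. The summed H3.3 level was 4872 ± 244 and 3575 ± 118 normalized counts per kilobase, and Rnf40-/- MEFs thus held 73.4% of the Rnf40+/+ level. Copies of at least 95% identity cover 36.5% of the H3f3a transcript at 25 other places in mm9, among them H3f3a-ps1, H3f3a-ps2 and H3f3c, and 43.8% of that of H3f3b at 2 places, so the counts of both are uncertain to the extent that reads were shared. The 2 transcripts themselves shared 0 windows of 35 nucleotides.

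**Figure D2:**
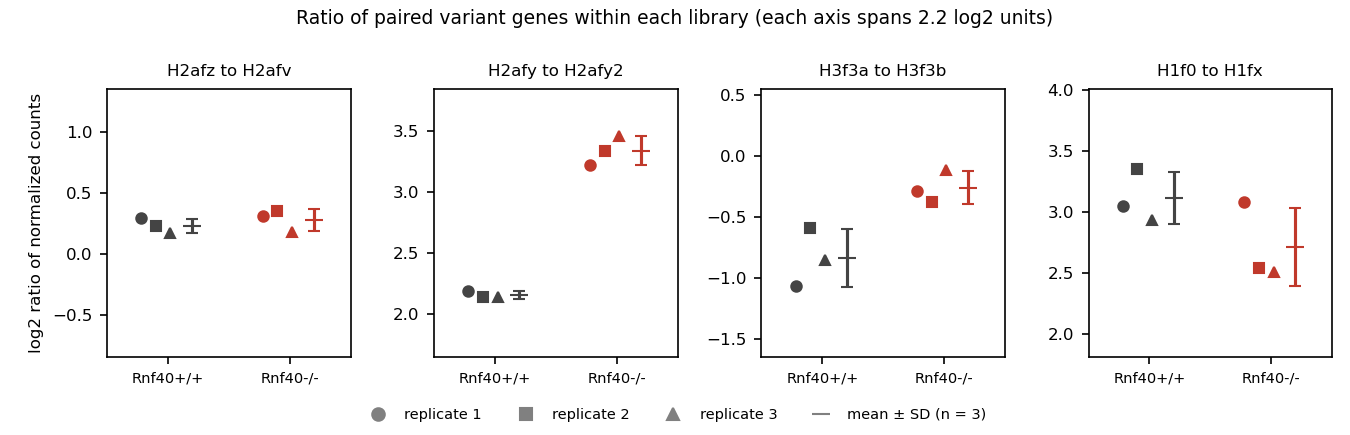
Log2 ratio of the normalized counts of paired variant genes in each library of Rnf40+/+ (grey) and Rnf40-/- (red) MEFs, with symbols for replicates 1 to 3 and mean ± SD beside them. The H2afy to H2afy2 and H3f3a to H3f3b ratios are higher in all 3 Rnf40-/- libraries, and the H2afz to H2afv and H1f0 to H1fx ratios overlap.

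Both linker histone genes fell. H1f0 encodes H1.0, which builds up in differentiated and resting cells, and H1fx encodes H1.X. The normalized counts of H1f0 were 2125, 1907 and 2024 in Rnf40+/+ and 1034, 980 and 880 in Rnf40-/- libraries. Those of H1fx were 256, 186 and 263 in Rnf40+/+ and 121, 167 and 154 in Rnf40-/- libraries. Neither gene overlapped between genotypes, though the second Rnf40+/+ library of H1fx came close to the highest Rnf40-/- library. H1f0 was 2.09-fold lower (log2 fold change -1.07, SE 0.08, limma adjusted p = 6.88e-07). H1fx was 1.58-fold lower (log2 fold change -0.66, SE 0.17, limma adjusted p = 0.00654). The ratio of H1f0 to H1fx overlapped, from 7.68 to 10.2 in Rnf40+/+ and from 5.69 to 8.46 in Rnf40-/- libraries (exact two-sided permutation p = 0.3, 0.4 after adjustment). The annotation of mm9 used here places H1f0 at chr15:78859152-78859689 on the plus strand as a pseudogene model of 534 nucleotides, so no level per kilobase is given for it. H1fx is a single exon at chr6:87930416-87931476 on the minus strand and overlaps Gm5577.

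**Figure D3:**
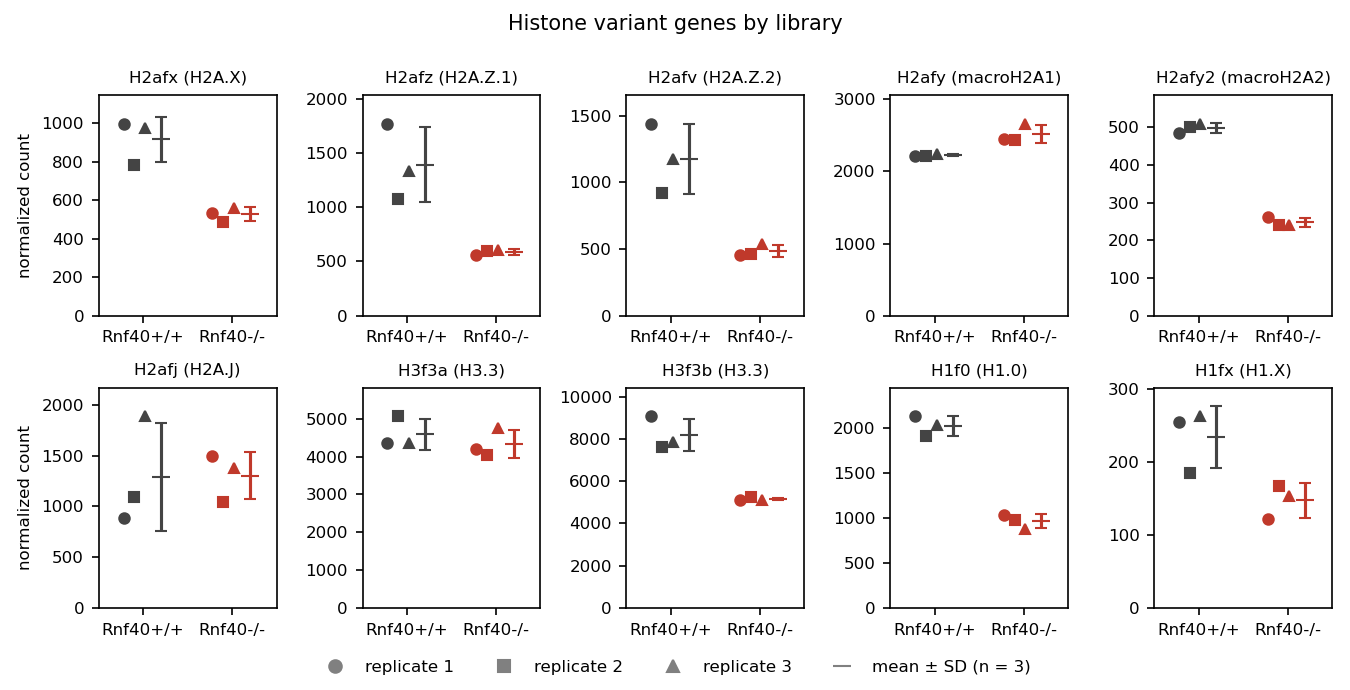
Normalized counts (vertical axis, from 0) of each histone variant gene in the 3 Rnf40+/+ (grey) and 3 Rnf40-/- (red) libraries, with mean ± SD beside the points. The red points lie below all grey points in 7 panels, above them for H2afy, and among them for H2afj and H3f3a.

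Levels per kilobase of the longest transcript allow genes to be set side by side. H1f0 was left out because of its short pseudogene model. Among the other variant genes the level was highest for H3f3b in both genotypes. In Rnf40+/+ MEFs it was 3256 ± 308 for H3f3b, 1616 ± 145 for H3f3a, 1302 ± 325 for H2afz and 1088 ± 6.62 for H2afy (normalized counts per kilobase, SD, n = 3). H2afv, H2afj and H2afx followed at 720 ± 159, 705 ± 289 and 677 ± 86.6, and H2afy2 and H1fx were lowest at 229 ± 5.63 and 221 ± 40.2. Libraries overlapped between H3f3a and H2afz, between H2afz and H2afy, among H2afv, H2afj and H2afx, and between H2afy2 and H1fx, so these neighbours were not separated. In Rnf40-/- MEFs the order was H3f3b at 2052 ± 26.1, H3f3a at 1523 ± 132, H2afy at 1230 ± 60.2, H2afj at 714 ± 129, H2afz at 549 ± 22.8, H2afx at 389 ± 27.7, H2afv at 296 ± 28.0, H1fx at 139 ± 22.2 and H2afy2 at 114 ± 5.61. The libraries of H1fx and H2afy2 overlapped there too. With that length H2afz stood above H2afy on average in Rnf40+/+ and below it in Rnf40-/- MEFs. With the union of exons as the length, H2afz had 784 and H2afy 327 per kilobase in Rnf40+/+ MEFs, against 331 and 370 in Rnf40-/- MEFs. On that length H2afz stood nearer to H2afv at 718, H2afj at 705 and H2afx at 677 in Rnf40+/+ MEFs. In Rnf40-/- MEFs H2afy stood below H2afj and H2afx, and H2afz below H2afx at 389. The places of H2afy and H2afz in the order thus depend on the length used.

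Among the genes whose level over the 6 libraries was most like that of H2afv, the variant with the largest estimated log2 fold change, were Rmnd1, asp3 and Suv39h2, with Pearson's r of 0.9979, 0.9973 and 0.9969 on log2(normalized count + 1). This likeness is a description over 6 points that share the genotype difference, and 674 genes had an r of at least 0.95.

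Proteins that place, move and read these variants were taken as lists written from general knowledge, and their counts are to be read against the 24.1% of all genes tested that fell, the 23.3% that rose and the 47.4% called in either direction. The H2A.Z exchange list holds subunits of the SRCAP, TIP60/p400 and INO80 remodelers and the chaperone ANP32E. Of its 19 genes tested, 6 fell, 1 rose and 12 did not pass, with a median log2 fold change of -0.07, and without the first Rnf40+/+ library 2 rose. Ep400, an ATPase that exchanges H2A.Z, rose (log2 fold change 0.58, normalized counts 1191 ± 75.8 and 1781 ± 97.4, limma adjusted p = 5.17e-05). Meaf6, Yeats4 and Kat5, subunits shared by or catalytic in acetyltransferase complexes, fell, with log2 fold changes of -0.76, -0.71 and -0.55. Srcap, the ATPase that gives the other complex its name, had 130 ± 26.8 and 131 ± 26.8, and Anp32e, which removes H2A.Z, had 1085 ± 112 and 1075 ± 19.3 normalized counts. These 2 and the H3.3 chaperones with no call below were named after their values were seen.

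Of 13 genes for the phosphorylation and reading of H2A.X, 2 rose, 2 fell and 9 did not pass (47.4% called over all genes tested), with a median of 0.15. Without the second Rnf40-/- library 1 fell and no rise passed, and without the third 4 rose. Eya3, a phosphatase of the tyrosine of H2A.X, and Baz1b, a kinase for it, rose by log2 fold changes of 0.28 and 0.22. Mdc1, the reader of phosphorylated H2A.X, and Ppp4c, a catalytic phosphatase subunit, fell, with log2 fold changes of -0.36 and -0.27. Of 8 genes for H3.3 deposition, 1 rose and 7 did not pass, with a median of 0.0040. Without the first Rnf40+/+ library 2 rose, and without the third 1 fell. The one that rose was Ubn1, a subunit of the HIRA complex (log2 fold change 0.69, normalized counts 913 ± 64.7 and 1470 ± 41.9, limma adjusted p = 1.45e-05). Hira itself had 776 ± 34.2 and 759 ± 8.05, Daxx 642 ± 24.0 and 622 ± 48.6, and Atrx 1811 ± 153 and 1983 ± 175 normalized counts (SD, n = 3).

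The list for H3-H4 deposition coupled to replication had 6 of 8 genes lower, where 24.1% of all genes tested were lower, 1 higher and a median of -0.79, and the lists were not tested against each other. Asf1b, an H3-H4 chaperone, fell by 2.01 on the log2 scale, from 184 ± 29.3 to 44.4 ± 1.55 normalized counts. Mms22l and Chaf1b, the latter a subunit of the CAF-1 assembly factor, fell, with log2 fold changes of -1.12 and -1.03, and Cdan1 rose with a log2 fold change of 0.34, a call lost without the second Rnf40+/+ and without the first or second Rnf40-/- library. The 3 genes tested, of 5 listed, for the centromeric variant CENP-A and its deposition all fell. Cenpa itself went from 94.6 ± 4.25 to 9.95 ± 2.29 normalized counts (log2 fold change -3.15, limma adjusted p = 2.49e-06). Oip5 and Hjurp, which take part in its deposition, had log2 fold changes of -1.55 and -1.23. Of 8 general chaperones of H2A-H2B and linker histones 2 fell, 1 rose and 5 did not pass, with a median of -0.12. Without the third Rnf40+/+ library 4 fell, and without the second Rnf40+/+ or the second Rnf40-/- library 2 rose, as they did by edgeR, by DESeq2 and after TMM or upper-quartile normalization. Ptma, for prothymosin alpha, rose (log2 fold change 0.57), and Npm3 and Set fell (-0.83 and -0.30). Of 3 macroH2A partners, Hells, for the remodeler LSH, fell (log2 fold change -1.87) and 2 did not pass, with a median of 0.13.

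Genes of proliferating cells were measured beside the variant genes. Of 20 proliferation markers 19 fell and 1 did not pass, with a median of -2.30. Their summed normalized counts were 13428, 11334 and 11615 in Rnf40+/+ and 4734, 4613 and 4617 in Rnf40-/- libraries. Every Rnf40-/- sum was below every Rnf40+/+ sum. Ccnb2, Ccnb1 and Top2a, which act in mitosis, had log2 fold changes of -3.32, -3.24 and -3.20. The part of proliferation in the fall of 7 variant genes was not tested.

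**Figure D4:**
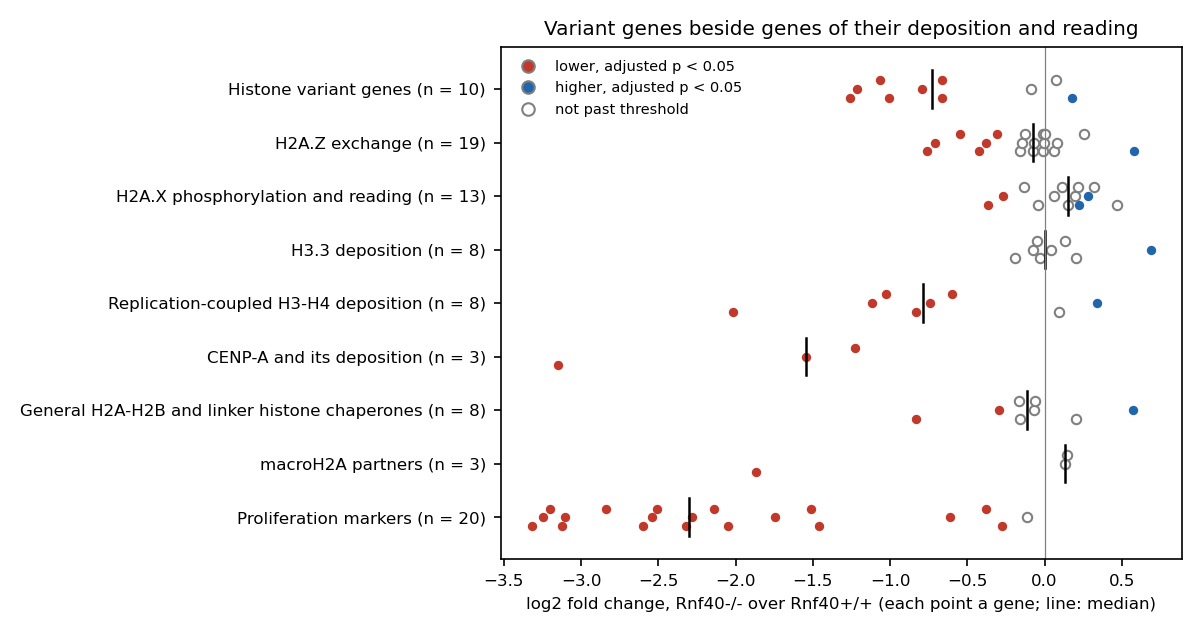
Log2 fold change of each tested gene (points) in the histone variant list, in 7 lists for deposition or reading of histones and in the proliferation markers, with the median as a line, filled points being calls at an adjusted p under 0.05 by limma. Medians are -0.73 for the variant genes, 0.0040 for H3.3 deposition, -0.79 for replication-coupled deposition and -2.30 for proliferation markers.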

How the data were processed

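The deposited table holds, as signal, reads per gene that the authors divided by 1 DESeq size factor per library after mapping to the mouse transcriptome (mm9). The submitters' processing notes name Bowtie2 (2.1.0) and DESeq (1.14.0). In each library 100% of values were whole multiples of 1 read (tolerance 0.01), so reads were recovered.

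Genes passing filterByExpr of edgeR (4.0.16) on those reads were tested with limma (3.58.1; lmFit, eBayes with trend) on log2(normalized count + 1), a pseudocount that understates changes of low genes, with genotype only. Ratios used exact permutation tests. No pair of libraries within a genotype agreed within sampling noise (chi-square per gene 5.37 to 29.0). The design gave limma for normalized values. Simulated data were used to check the tests.

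The genes named are the 10 members, Rnf40, up to 3 rises and 3 falls per list other than the marker lists, and the 5 genes most like H2afv, of which some are not reported here. Of the proliferation list only falls are named. Members and lists were chosen with earlier results of these data known.

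Same-numbered libraries did not deviate together (correlations of 0.012 to 0.021 over genes), so the numbers were not treated as pairs. Alternatives were other normalizations, edgeR and DESeq2 (1.42.0), filters, pseudocounts of 0.1 and 10, the criteria of the study, a replicate block and each library left out. Size factors recomputed by DESeq2 matched the deposited ones, so that normalization repeated the main fit and could not differ from it. R 4.3.3, Python 3.11.15 and BLAST 2.17.0 were used. Positions are from GENCODE for mm9 and start-site windows from RefSeq (GRCm38.p6), and coordinates were not converted between them.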

Additional observations from a re-analysis of the deposited data

How the results depend on the processing

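The 7 falls kept their direction and call under every alternative that gave an adjusted p, with an adjusted p of at most 0.0339. The edgeR and DESeq2 tests each gave 7 lower and 1 higher variant gene, and 3857 and 3563 genes higher and 3940 and 3726 lower over all genes. Under the criteria of the study, applied to limma values, 696 genes were higher and 934 lower. Of these, 0 and 4 were variant genes. These criteria change the p, the mean and the fold change asked for at once. The totals are not those of the fit made by the study. With 1 library left out, the number of variant genes higher ranged from 0 to 2, the log2 fold change of H2afy from 0.14 to 0.20 and that of H2afj from -0.16 to 0.39. H2afj was reversed without the first (-0.16) or second (-0.0043) Rnf40+/+ or the first Rnf40-/- library (-0.031), and called without the third Rnf40+/+ library. For H3f3a, the adjusted p ranged from 0.175 to 0.915. Over the totals, the variant genes and the gene lists, 57 recomputed counts moved by over 1.5 times, or to or from 0, and 619 did not. Of the recomputed ratios and list medians, 18 moved by at least their SD within genotypes and 322 did not.

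Same-numbered libraries share only the number, and they did not correlate best with their own number. A replicate block gave 4021 genes higher and 4196 lower, with 1 and 7 variant genes. The block cannot change a log2 fold change, since each number has 1 library per genotype, and only its p can differ. The block moved no call of a variant gene. The number of reads limits H1fx most among the variant genes.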

Other observations

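The clustered histone genes, whose mRNAs mostly lack a poly(A) tail, had calls in both directions. The methods of the study do not say whether poly(A) RNA was selected, so how far these counts measure such mRNAs is not known. Some had few reads, as Hist1h4d with 7 to 28 and Hist1h2ak with 7 to 33 per library. For such genes, not passing the test does not show that they were unchanged. All 62 were found, and 54 had enough reads to be tested. Of these, 8 fell, 5 rose and 41 did not pass, where 47.4% of all genes tested were called, with a median log2 fold change of -0.14. With 1 library left out, the number that fell was between 3 and 7, and it was 3 without the third Rnf40+/+ or the second Rnf40-/- library. By DESeq2 5 fell, and with no filter on low values 4 fell. Hist1h2bk, Hist1h2ac and Hist1h2bh fell, with log2 fold changes of -0.74, -0.70 and -0.70, and Hist1h4h, Hist1h1e and Hist1h3f rose with log2 fold changes of 0.79, 0.76 and 0.72. The summed normalized count of the clustered genes was 9523 to 9943 in Rnf40+/+ and 8397 to 8798 in Rnf40-/- libraries. Near-identical copies within the clusters make single genes uncertain. By class, 5 of 15 H2B genes fell (2 by DESeq2, with no filter, or without the third Rnf40+/+ or either the second or the third Rnf40-/- library) and 2 rose, 1 of 14 H2A genes fell, and of the 11 H3 genes 1 rose. Of 9 further histone genes listed outside the clusters, 4 were found, and these germ-line genes were hardly detected. The others had no values. H1foo, H1fnt and H2afb1 had 0 reads in every library, which allows an expected count of up to 3 reads in each. Hils1 had 1 to 7 reads per library.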
